A study of Saccharomyces cerevisiae with 8 samples.

Results

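The genes described are 9 budding yeast genes that make purine nucleotides or convert one into another: ADE4, ADE2, ADE17, ADE13, ADE12, IMD3, IMD4, GUA1 and AAH1. They are 9 of 6002 nuclear protein-coding genes in the RefSeq R64 table, and 9 of the 3432 that lie on the 8 chromosomes whose annotation could be matched to the summit lists (called placed genes). The genes were chosen by pathway and chromosome with the summits of these same lists already known, so the summit positions, scores and calls below describe them and carry no test. Rpb1, the large catalytic subunit of RNA polymerase II, was immunoprecipitated from strain AM1003. Libraries were made 6 h after 2% galactose had been added to switch on GAL::HO, the galactose-driven HO endonuclease (2 libraries), and from untreated cells at 0 h (2 libraries). Both times share the strain, the GAL::HO construct, the rich raffinose medium and the antibody. The 4 input libraries are not analysed here. The sample titles of both times label the cells WT (wild type). Beyond that, the strain name and GAL::HO, the labels give no genotype, and no source tells whether the replicates are separate cultures. Their spread may be technical. Galactose, the break and 6 h of further culture come together and cannot be told apart.

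Purine nucleotides are built step by step on phosphoribosyl pyrophosphate until the ring of inosine monophosphate, IMP, is closed. IMP is the branch point, from which one route leads to AMP and the other to GMP. Cells can also take up adenine and recycle it through salvage enzymes. In yeast the ADE genes are known as targets of the activators Bas1 and Pho2, which work when adenine is scarce, and yeast keeps several nearly identical genes for IMP dehydrogenase.

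Peak summits were listed separately for each library. Replicates 1 and 2 held 1288 and 1074 summits at 6 h, against 1186 and 1194 at 0 h. A summit is the position of highest enrichment in a peak, and its score, given by the authors' peak caller, is −log10 of p or of q. The lowest listed scores were 2.00 and 2.02 at 6 h, against 2.03 and 2.16 at 0 h. Scores depend on read depth, which is unknown, and were not normalized between libraries, so they place a summit within its own list only. A gene without a summit may still have carried polymerase. Across the 8 chromosomes, 63.0% to 95.3% of landmark genes, which are usually strongly transcribed, had a summit within 250 bp on average over the libraries, and the best shift of the annotation was at most 200 bp. Distances from a codon carry at least that uncertainty, whereas distances between summits of different libraries do not.

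The 9 genes showed 3 patterns, given here by place in the pathway. The 3 genes of the GMP branch among the 9, IMD3, IMD4 and GUA1, had a summit in all 4 libraries, as did 9.88% of all placed genes. Such a summit lay inside the gene or no more than 250 bp outside it. IMD2, a further gene of that branch, was not placed. With the gene body alone none of the 3 did: IMD3 and GUA1 then had a summit in 3 libraries and IMD4 in 1. AAH1, the adenine salvage gene, had a summit in each 6 h library and none at 0 h. ADE4, ADE2, ADE17, ADE13 and ADE12, of IMP synthesis and the AMP branch, had none in any library, as was the case for 67.0% of all placed genes. By library, 4 of the 9 genes had a summit in each replicate at 6 h, against 3 in each replicate at 0 h. Among all 3432 placed genes the shares with a summit were 23.3% and 20.4% at 6 h, against 19.8% and 19.5% at 0 h.

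**Figure D1:**
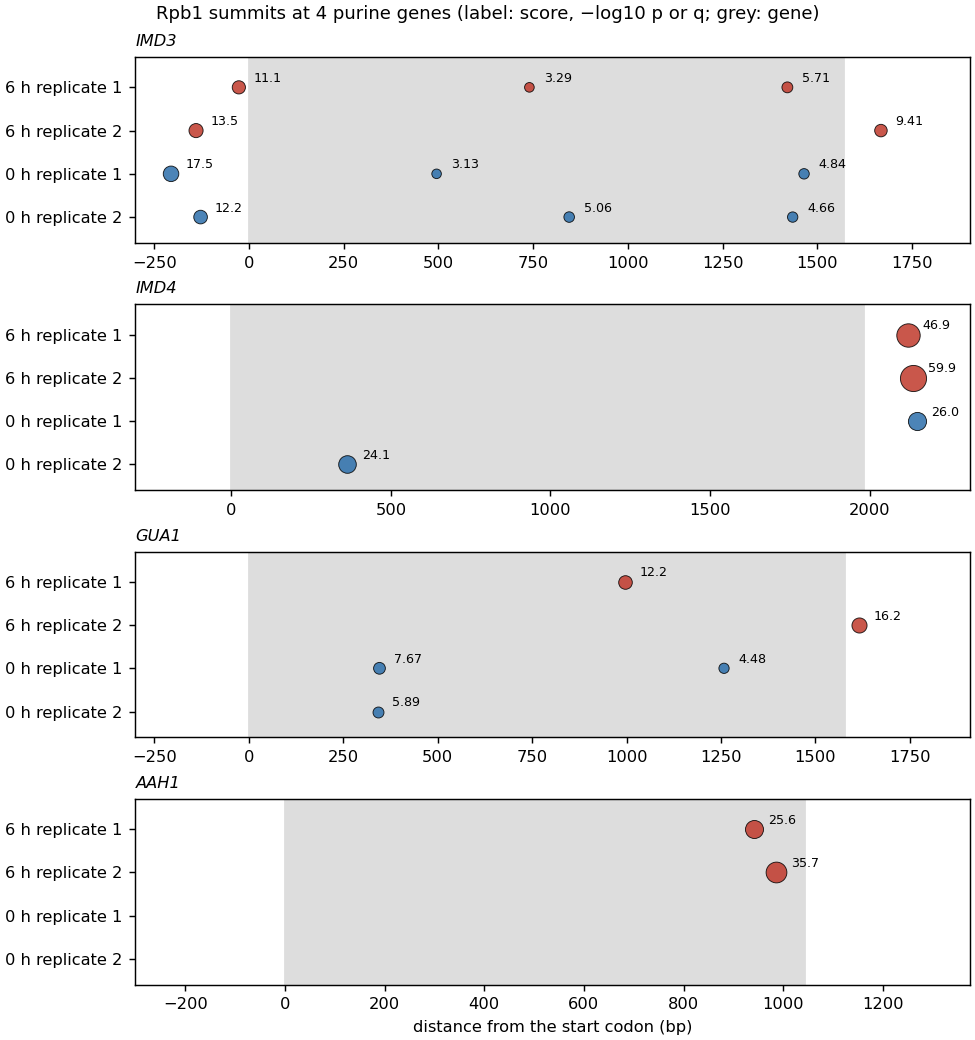
Rpb1 summits at IMD3, IMD4, GUA1 and AAH1 in each library (rows), by distance from the annotated start codon in bp (x axis), with the gene in grey. Each point is 1 summit, labelled with its score and drawn larger for a higher score. AAH1 has points in the 6 h rows only (scores 25.6 and 35.7), and the GUA1 points lie further right at 6 h than the better-scoring points at 0 h.

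AAH1 encodes adenine deaminase, which turns adenine into hypoxanthine so that it can enter the IMP pool. At 6 h its summits had scores of 25.6 in replicate 1 and 35.7 in replicate 2, while the 0 h lists had no summit in the window. These were ranks 252 of 1288 and 211 of 1074 in their lists, so both stood in the best-scoring 19.6% of summits. The 2 summits lay at positions 360537 and 360582 of chromosome XIV in the lists' own coordinates (build not stated). They were 45 bp apart, 941 and 986 bp downstream of the start codon and 102 and 57 bp before the end of the stop codon. At the R64 positions both therefore sat in the last part of the gene, and no other annotated gene lay within 250 bp of either. With the annotation moved by -200 bp, the best landmark shift of chromosome XIV, both summits would lie 98 and 143 bp past the stop codon. On which side of the stop codon they sit is therefore uncertain. The next gene in that direction, the convergent YNL140C, lies 277 bp beyond AAH1. With the moved annotation the summits would lie between these 2 genes and within 250 bp of both. They then could not be assigned to AAH1 rather than YNL140C.

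The 0 h libraries had their nearest summits 2330 and 3494 bp upstream of AAH1, with scores of 3.80 and 6.97. The nearest 0 h summit was thus in the direction of MEP2, the ammonium permease gene, and well beyond the window. In 6 h replicate 2 a further summit lay 969 bp from AAH1. AAH1 was the only one of the 9 genes with this pattern, 1 of 9 against 4.31% of all placed genes (148 of 3432). That pattern was known when the gene was chosen. None of the 9 had the opposite pattern, with summits at 0 h alone, against 3.06% of placed genes (105 of 3432).

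The placed genes most like AAH1 were NOP12 and SMM1. Likeness was measured over the 4 libraries as the mean absolute difference in the percentile of the best summit within its list, with no summit counted as 0. The mean differences were 0.369 and 0.978 percentile points. This measure selects genes with the pattern of AAH1, so the values only describe the genes chosen. NOP12 and SMM1 had no 0 h summit. At 6 h their best summits stood at percentiles 79.5 and 80.9 for NOP12 and 78.2 and 82.0 for SMM1.

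GUA1 encodes GMP synthase, the last enzyme of the GMP branch. Its best summit lay 997 and 1616 bp downstream of the start codon at 6 h, against 346 and 341 bp at 0 h. Both 6 h summits were downstream of both 0 h summits, by 651 to 1275 bp between libraries, and the means of 1306.5 ± 438 bp at 6 h and 343.5 ± 3.54 bp at 0 h (SD, n = 2 each) differed by 963 bp. The 0 h summits were 5 bp apart, whereas the 6 h summits were 619 bp apart. The 6 h replicate 2 summit was 39 bp past the stop codon and also 173 bp from TRS130, the convergent gene next to it. With the annotation moved by -100 bp this summit would lie 139 bp past the stop codon. It cannot be assigned to GUA1 rather than TRS130, and the difference of 963 bp rests in part on it.

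GUA1 scores were 12.2 and 16.2 at 6 h, ranks 445 of 1288 and 382 of 1074. At 0 h they were 7.67 and 5.89, ranks 577 of 1186 and 709 of 1194. The 0 h replicate 1 library had a second, lower summit in the gene, with a score of 4.48 and 1258 bp downstream of the start codon. That position lies between the 2 positions found at 6 h. When the summit nearest the stop codon stood for the gene, the times overlapped and the difference was 507 bp. The better-scoring 50% of summits left no GUA1 summit in 0 h replicate 2.

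IMD3 and IMD4 encode IMP dehydrogenase, which commits IMP to the GMP branch. They are close copies of each other and of IMD2, on chromosome VIII, where genes were not placed. Reads that match more than 1 copy cannot be assigned to a gene, and how such reads were treated is not stated. Summits inside the coding sequence of IMD3 or IMD4 are therefore uncertain as to gene.

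IMD3 had several summits in every library, 3 and 2 at 6 h against 3 and 3 at 0 h. The best of them lay upstream of the start codon in all 4 libraries, by 27 and 140 bp at 6 h and by 206 and 128 bp at 0 h. Their scores were 11.1 and 13.5 at 6 h, ranks 480 of 1288 and 430 of 1074. At 0 h they were 17.5 and 12.2, ranks 314 of 1186 and 409 of 1194. The positions of the 2 times overlapped, and the means of -83.5 ± 79.9 bp at 6 h and -167 ± 55.2 bp at 0 h (SD, n = 2 each) differed by 83.5 bp. With the annotation moved by -100 bp, the 6 h replicate 1 summit would lie 73 bp inside the gene and the other 3 still upstream of it.

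A second IMD3 summit marked the 3′ end in every library. It lay 150 bp before the end of the stop codon in 6 h replicate 1 and 97 bp past it in 6 h replicate 2, against 106 and 136 bp before it at 0 h. Its scores were 5.71 and 9.41 at 6 h, against 4.84 and 4.66 at 0 h. The 6 h replicate 2 summit also lay 122 bp from CNA1, the convergent neighbour that encodes a catalytic subunit of the phosphatase calcineurin. Other summits stood in the middle of the gene, 740 bp from the start codon in 6 h replicate 1 and 495 and 845 bp from it at 0 h, with scores of 3.29 at 6 h and of 3.13 and 5.06 at 0 h. In 0 h replicate 2 this summit scored above the one at the 3′ end, and in 6 h replicate 2 no summit was listed there. With the gene body alone as window, IMD3 had a summit in 3 of the 4 libraries. The landmark gene closest to IMD3, RPS1A at 14 kb, had a summit within 250 bp in only 1 library, so the placement is weakly anchored here.

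IMD4 had 1 summit per library. At 6 h it lay 138 and 155 bp past the stop codon, 2120 and 2137 bp downstream of the start codon, at positions 162056 and 162039 of chromosome XIII in the lists' own coordinates. At 0 h it lay 2147 bp from the start codon in replicate 1, 165 bp past the stop codon, and 364 bp from the start codon in replicate 2. Thus 3 of the 4 libraries had the summit at the same place, 2120 to 2147 bp from the start codon, and 0 h replicate 2 stood apart. The difference of the means, 873 bp, rests on that library: the positions of the 2 times overlapped, and the 0 h replicates were 1783 bp apart, against 17 bp at 6 h.

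The IMD4 scores were 46.9 and 59.9 at 6 h, ranks 96 of 1288 and 101 of 1074, and 26.0 and 24.1 at 0 h, ranks 247 of 1186 and 252 of 1194. These were the best-placed summits of any of the 9 genes at either time. The 3 summits past the stop codon also lay 62, 45 and 35 bp from CMP2, the convergent neighbour, in 6 h replicate 1, 6 h replicate 2 and 0 h replicate 1. CMP2 encodes the other catalytic subunit of calcineurin. With 2 genes ending at that spot, the summit cannot be assigned to IMD4 rather than CMP2. The 0 h replicate 2 summit lay 192 bp from SNR54, a small nucleolar RNA gene within the annotated span of IMD4. No IMD4 summit lay inside the gene in the other 3 libraries.

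In the same measure of likeness, GUA1 was closest to RRN3 and ILS1, with mean differences of 3.25 and 4.19 percentile points. IMD3 was closest to PRT1 and CWC25, at 1.53 and 2.99. IMD4 was closest to EAF5 and MXR1, at 2.27 and 2.79. PRT1, which encodes a subunit of translation initiation factor eIF3, had its best summits at percentiles 62.5 and 61.1 at 6 h and 70.7 and 67.8 at 0 h. The corresponding percentiles of IMD3 were 62.8 and 60.1 at 6 h, against 73.6 and 65.8 at 0 h.

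A summit in all 4 libraries was found in 3 of the 9 genes and in 9.88% of all placed genes (339 of 3432). With the gene body alone these counts were 0 of 9 and 111 of 3432. Of these 3 genes, GUA1 alone had both 6 h summits downstream of both 0 h summits, an order found in 40.7% of the 339 genes, and none had the reverse order, found in 10.3%. The median displacement over the 3 genes was 873 bp, the value of IMD4. It was 122.5 bp without 0 h replicate 2, and 83.5 bp, the value of IMD3 alone, when genes that share a best summit with another gene were left out. Over the 339 genes the median was 84.5 bp, and single genes had quartiles of -11.3 and 369 bp. A displacement smaller than that of GUA1 was found in 93.5% of the 339 genes. For IMD4 that share was 91.7% and for IMD3 49.6%. The 339 genes include neighbours that share a best summit, each counted separately. The length of a gene also limits how large its displacement can be, and these shares were not adjusted for either.

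**Figure D2:**
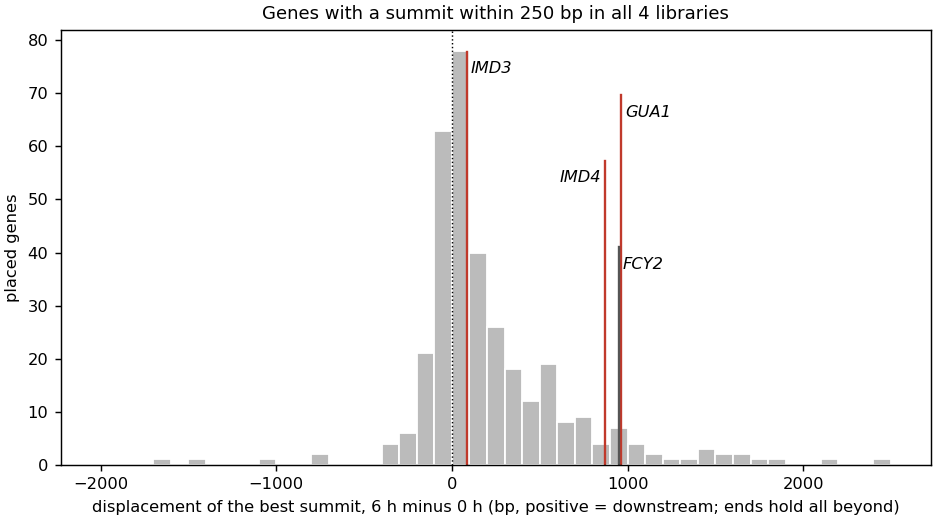
Displacement of the best-scoring summit, the mean of the 6 h libraries minus that of the 0 h libraries in bp (x axis, positive is downstream), for the 339 placed genes with a summit within 250 bp in all 4 libraries (bars count genes). Lines mark IMD3 at 83.5 bp, near the middle of the distribution, and IMD4 at 873 bp, GUA1 at 963 bp and the adenine permease gene FCY2 at 948.5 bp in its right tail. The height of a line has no meaning.

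The remaining 5 genes held no summit within 250 bp in any library, as did 67.0% of all placed genes (2301 of 3432). ADE4 encodes the amidotransferase of the first committed step of IMP synthesis, and its nearest summits were 5404 to 12205 bp away over the 4 libraries. ADE2, whose product carboxylates the imidazole ring and whose loss turns colonies red, had its nearest summits 10040 to 10446 bp away. For ADE17, which encodes the bifunctional enzyme that closes the IMP ring, the distances were 2122 to 2600 bp. ADE13 encodes adenylosuccinate lyase, which serves both IMP synthesis and the AMP branch, and its distances were 5721 to 6526 bp. For ADE12, encoding adenylosuccinate synthase, the entry to the AMP branch, they were 4703 to 4884 bp.

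At the R64 positions none of these 5 genes was near the limit of the window. Over all 9 genes, the farthest summit inside it was 206 bp from its gene, at IMD3 in 0 h replicate 1. The closest summit outside it was the one 969 bp from AAH1. Widening the window to 500 bp on each side therefore changed the call of none of the 9 genes, and the same 5 genes stayed without a summit. The closest landmark gene had a summit in all 4 libraries for ADE2 (EFT1, 8.9 kb away), ADE4 (NIP1, 25.9 kb away) and ADE13 (RPS22B, 10.7 kb away). For ADE12 the closest landmark, SUI1 at 46.9 kb, had one in 1 library. For ADE17 it was RPL15B, 0.5 kb away, which had a summit in no library. The summits nearest to ADE17 lay within 250 bp of no annotated gene at 6 h, and within 250 bp of NCW1 at 0 h. The placement is thus weakly anchored at ADE12 and ADE17, and their distances to the nearest summit are uncertain.

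**Figure D3:**
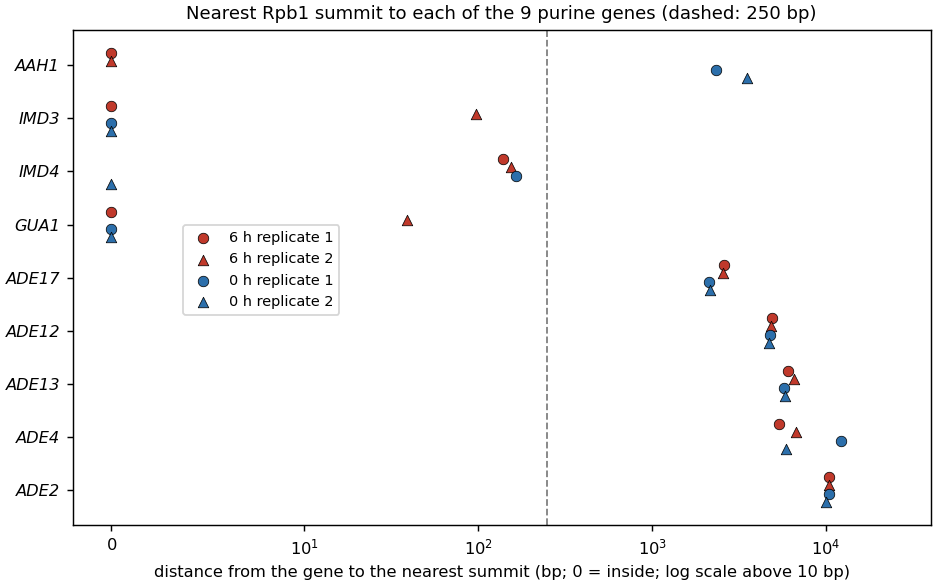
Distance in bp from each of the 9 genes (rows) to the nearest summit in each library (x axis, 0 for a summit inside the gene, log scale above 10 bp), with red for 6 h, blue for 0 h, circles for replicate 1 and triangles for replicate 2. The dashed line is the 250 bp window. AAH1 is inside the window at 6 h and at 2330 and 3494 bp at 0 h, and the 5 ADE genes lie at 2122 bp or more in all 4 libraries.

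Of 36 other genes of purine supply, 20 were placed. Among these 20, 1 had summits in both libraries at 6 h alone and 1 in both at 0 h alone, against 4.31% and 3.06% of all placed genes. A further 3 had a summit in all 4 libraries and 10 in none, against 9.88% and 67.0% of all placed genes. The other 5 had a summit in some libraries. The 10 without one were PRS2, PRS4, AMD1, PNP1, ISN1, FCY21, FCY22, SHM1, SHM2 and GCV2.

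FCY2 encodes the permease that brings adenine and cytosine into the cell, and thus supplies the substrate of adenine deaminase. Its summit lay 1240 and 1407 bp downstream of the start codon at 6 h, against 407 and 343 bp at 0 h, so that both 6 h positions were downstream of both 0 h positions. The means, 1323.5 bp at 6 h and 375 bp at 0 h, differed by 948.5 bp. All 4 summits were inside the gene, with scores of 32.8 and 38.4 at 6 h and of 16.3 and 12.7 at 0 h. MTD1, encoding an NAD-dependent enzyme of one-carbon folate metabolism, was the gene with summits at 6 h alone, 696 and 762 bp from its start codon. Their scores of 5.12 and 4.64 were far lower in their lists than those of AAH1, at ranks 805 of 1288 and 866 of 1074.

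YNK1, encoding nucleoside diphosphate kinase, was the gene with 0 h summits alone. Its scores were 3.11 and 2.91, ranks 1116 of 1186 and 1140 of 1194, close to the lowest scores listed. PRS1, a subunit gene of phosphoribosyl pyrophosphate synthetase, had 2 and 2 summits at 6 h and 1 and 3 at 0 h, with scores from 2.23 to 6.12, and its best summits overlapped between the times. BAS1, the activator gene, had a summit in 6 h replicate 2 only, with a score of 3.26.

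**Figure D4:**
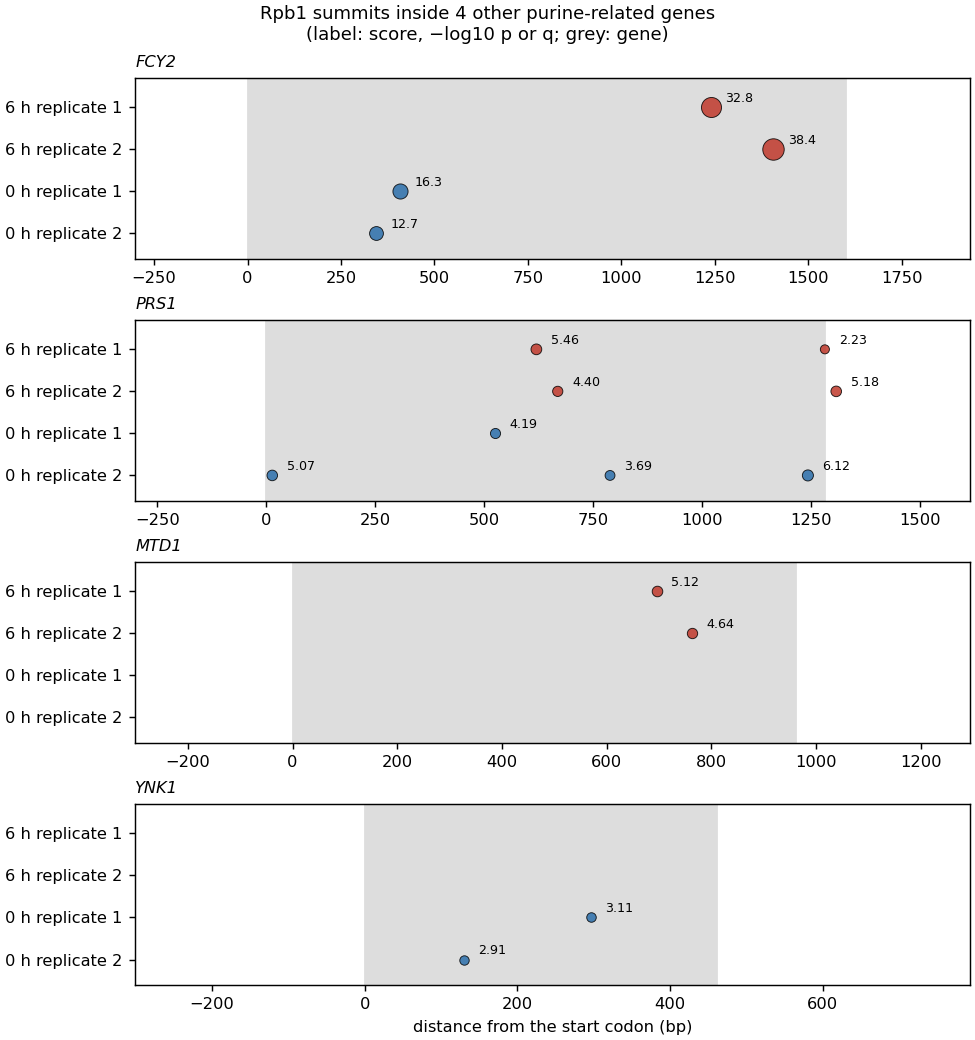
Rpb1 summits in FCY2, PRS1, MTD1 and YNK1 in each library (rows), by distance from the annotated start codon in bp (x axis), with the gene in grey. Each point is 1 summit, labelled with its score and drawn larger for a higher score. The FCY2 points are at 1240 and 1407 bp at 6 h and at 407 and 343 bp at 0 h, MTD1 has points in the 6 h rows only and YNK1 in the 0 h rows only.

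Other summits counted for the list lay at or near another gene. The 4 summits of ADE16, a close copy of ADE17, were 180 to 194 bp past its stop codon and inside the small nucleolar RNA gene SNR30, with scores of 72.8 and 124 at 6 h, against 92.6 and 110 at 0 h. They do not show polymerase on ADE16 itself. MIS1 had summits 25 and 201 bp past its stop codon at 6 h and 164 bp past it in 0 h replicate 1, all within 250 bp of the ribosomal protein gene RPL19A. PRS5 and APT1 each had summits past the stop codon in 1 library of each time, within 250 bp of MAM3 and UNG1. ADK2 had 1 summit, 40 bp upstream of its start codon in 6 h replicate 2 and within 250 bp of RPH1.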

How the data were processed

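Rpb1 ChIP-seq summit lists were deposited for 4 libraries, called per sample. Their scores are −log10 values, of p or q, from the authors' peak caller. Per the submitters' processing notes, the tools were MACS2 2.2.7.1, SAMtools 1.10, Bowtie2 2.2.4 and fastp 0.20.1, with no role attached. The genome build, threshold and use of inputs are not stated.

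Genes came from the RefSeq R64 table, with strand read from the systematic name. To test whether R64 positions apply, 256 landmark genes (small nucleolar RNAs, glycolysis, translation factors, ribosomal proteins) were slid by up to 12000 bp either way, 100 bp at a time. A chromosome was used with at least 10 landmarks and a best shift of no more than 500 bp, which left 8 of 16. Coordinates were not converted. A gene had a summit if one lay in it or within 250 bp, and its best summit is the highest-scoring one. Calling was tested on simulated data, with Python 3.11.15, numpy 2.4.6 and pandas 2.3.3. The simulated summits lay inside genes, were called with the gene body alone and marked the same genes in both replicates. The 250 bp window and disagreement between replicates were therefore not tested.

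Members and lists were chosen with earlier results of these data known. Named were all 9 members, other purine genes of a written list, neighbours within 250 bp of a member's summit, and the 2 genes most like each member. No test was made, and 2 libraries against 2 allow no permutation p smaller than 0.333. The planned motif search and protein comparison were not run. Alternatives were the gene body alone, 500 bp, the better-scoring 50% of summits, a moved annotation, other choices of summit, each library left out and same-numbered pairs. Deviations of same-numbered libraries correlated at 0.0434 over 1131 genes, and the libraries were left unpaired.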

Additional observations from a re-analysis of the deposited data

How the results depend on the processing

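The count of 1 gene with summits at 6 h alone (AAH1) and of 0 with summits at 0 h alone was the same under all 9 alternatives tried for them. The number of genes with a summit in all 4 libraries was 3, and 0 with the gene body alone, because every summit of IMD3 and GUA1 in 6 h replicate 2, and of IMD4 in 3 libraries, lies outside the gene. The better-scoring 50% of summits left 2. The median displacement of 873 bp was 122.5 to 965.5 bp without each library in turn, lowest without 0 h replicate 2, the library in which the IMD4 summit stands apart. It was 83.5 bp over genes that share no best summit with another gene, which left IMD3 alone, 507 bp with the summit nearest the stop codon and 478.25 bp with the better-scoring 50% of summits. With a replicate block, within same-numbered pairs, it was 727 bp and the counts were 1, 0 and 3. No displacement could be computed with the gene body alone. Moving the annotation by the landmark shift moved each position by 100 or 200 bp and no count for the 9 genes. Over all placed genes, the 148 with summits at 6 h alone were 75 with the gene body alone. They were 99 with the better-scoring 50% of summits and 198 to 254 with a library left out (most without 6 h replicate 2). With the replicate block they were 297. The 105 with summits at 0 h alone were 63 with the better-scoring 50% of summits, 132 to 167 with a library left out (most without 6 h replicate 1) and 220.5 with the block. The 339 in all 4 libraries were 111 with the gene body alone and 169 with the better-scoring 50% of summits. They were 507 with 500 bp on each side, 366 to 401 with a library left out and 452.5 with the block. The build and read depth are unknown, which limits positions near gene ends and any reading of a missing summit.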
